A study of Homo sapiens with 4 samples.

Results

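Ribosomes are put together in the nucleolus, where RNA polymerase I transcribes one long precursor of the ribosomal RNAs and a large set of proteins modifies, cuts and folds it. Small nucleolar ribonucleoproteins (snoRNPs) guide the modifications, box C/D particles for methylation of ribose and H/ACA particles for the change of uridine to pseudouridine. The small-subunit processome forms on the front of the precursor, and a second set of factors assembles the large subunit. Early erythroid precursors make many ribosomes, and ribosome synthesis is known to decline late in red cell maturation. The data below describe 58 genes of these assembly factors, out of 61498 genes in the deposited tables. The genes were taken as a named list, matched by symbol, and grouped by known function: 3 box C/D proteins, 5 H/ACA proteins, 4 multifunctional nucleolar proteins, 28 small-subunit factors and 18 large-subunit factors. The list and its groups were drawn up with earlier results of these data known. The shares of factors called are therefore described beside those of all genes and not tested against them.

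Poly(A) RNA was sequenced from K562, an established human erythroleukemia line whose cells can be pushed toward the erythroid state. The 2 untreated libraries came from K562 cells without added drug, and the 2 hemin libraries from K562 cells kept in 50 µM hemin, an iron porphyrin, for 108 h. The labels name no separate cultures behind the replicates and no culture time for the untreated cells, so p-values measure the spread between these libraries, which may be technical. The comparison asks how the RNA levels of the assembly factors differed between hemin-treated and untreated cells. In bulk RNA, a change in the share of a kind of cell and a change in RNA per cell cannot be told apart.

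Expected counts, the estimated reads per gene, summed to between 7455447 and 8241534 per library, and mitochondrial genes took 12.8% to 13.6% of them. All 58 factors passed the filter on low counts, as did 14458 genes in all. All 11 erythroid and K562 markers were detected, and 4 of them, the globins HBZ and HBE1, the transcription cofactor LMO2 and the transferrin receptor TFRC, were higher after hemin by edgeR's quasi-likelihood test. The T cell, B cell and monocyte markers, 3 genes of each, all fell below the test's filter, with summed TPM of at most 1.64 in any library. TPM count transcripts scaled for their length to a fixed sum. Of the 3 fibroblast markers only the collagen gene COL1A2 passed the filter. It had 108 and 121 counts in untreated cells and 72 and 88 with hemin, a log2 fold change of -0.53 (SE 0.155, edgeR adjusted p = 0.0511), and it was called lower in 5 of the 15 other settings, with adjusted p from 0.0285 to 0.299. COL1A1 had at most 13 counts and PDGFRA 0 in every library, and the summed TPM of the 3 genes was 5.21 and 6.35 untreated and 4.31 and 4.09 with hemin. The part of these markers in the results was not tested.

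The assembly factors were on balance higher after hemin. By edgeR's quasi-likelihood test, with p-values adjusted over all 14458 genes by Benjamini-Hochberg and a threshold of 0.05, 33 of the 58 were called higher and none lower, beside 7.00% of all tested genes called higher and 7.14% called lower. Among genes with a mean count of at least 100, where calls are easier to make, the shares were 10.7% and 8.82%. Before adjustment 47 factors had a p under 0.05 with higher values and 0 with lower ones, beside 14.8% and 14.6% of all tested genes. DESeq2 called 21 higher and 0 lower, beside 4.99% and 3.99% of all genes with an adjusted p in its fit. With scaling by library size alone 24 were called higher, beside 5.04% of all tested genes. The changes were small, and 56 of the 58 factors were above 0, beside 49.1% of all tested genes. The median log2 fold change was 0.24, with a range from -0.12 to 0.50, whereas the median over all tested genes was -0.0048. Both hemin libraries lay above both untreated libraries for 52 of the 58 factors in scaled counts, beside 28.1% of all tested genes, and below them for 0 factors, beside 29.3% of all tested genes. The number called higher rested on all of the libraries. In each of the 4 fits without 1 library it was lower, for the factors and over all tested genes alike. The factors' median in these 4 fits lay between 0.21 and 0.26. On log2(TPM + 1) with limma, which ignores the counts behind each value, only NCL was called, beside 0.0968% of all tested genes called higher. At an unadjusted p under 0.05, 23 factors were higher and 1 lower in that fit, beside 6.70% and 11.6% of all tested genes.

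**Figure D1:**
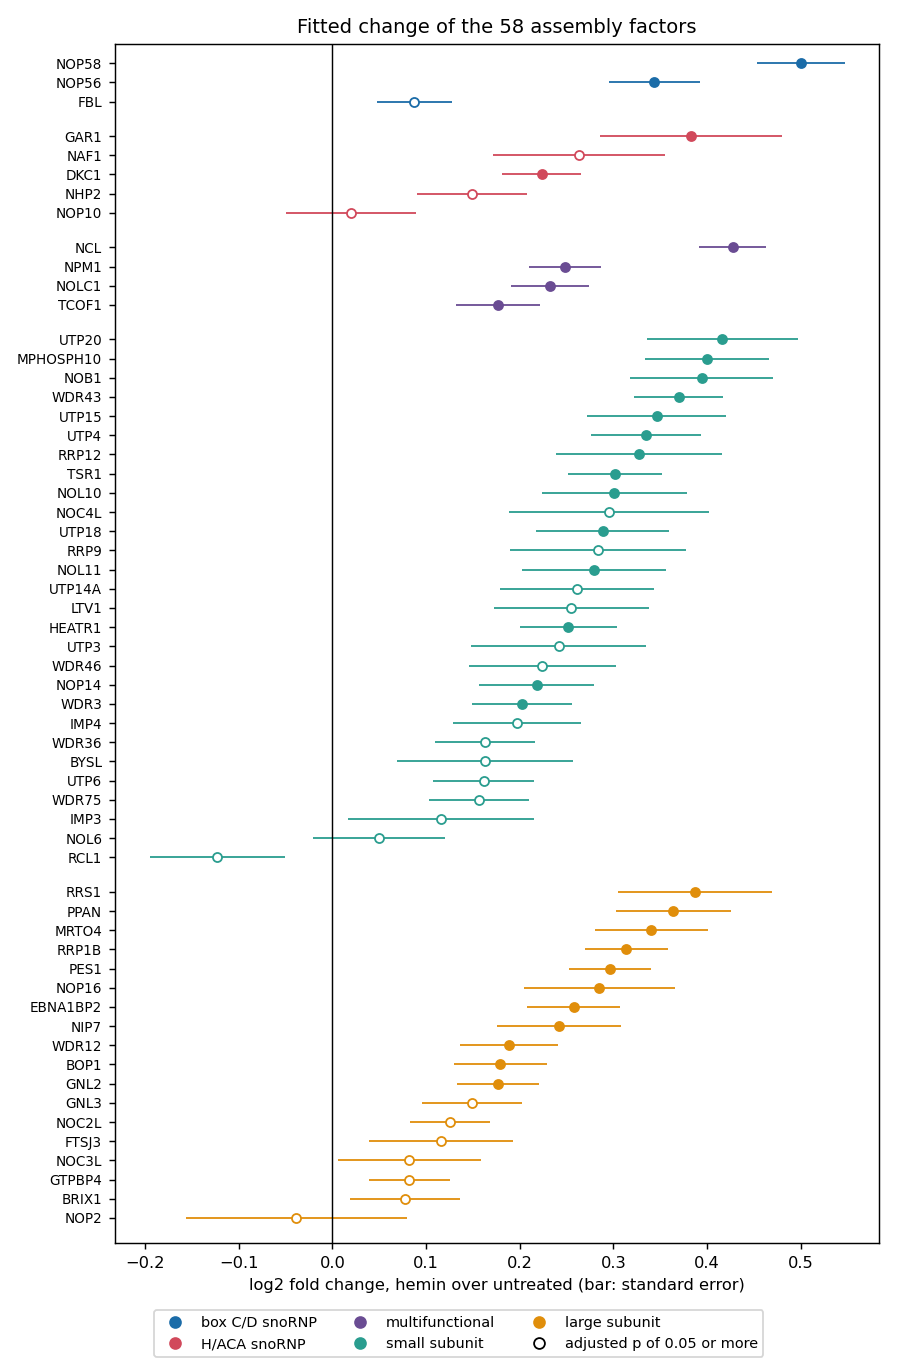
Log2 fold change of each of the 58 assembly factors, hemin over untreated, from edgeR, with bars for the standard error, in 5 groups by role. Filled points passed an adjusted p of 0.05. NOP58 is farthest to the right at 0.50, and NOP2 (-0.04) and RCL1 (-0.12) are the factors left of 0.

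Summed over the 58 factors, TPM came to 7301 and 7314 without hemin, against 8455 and 8474 with it. That is 0.730% and 0.731% of all transcripts by this measure before treatment, and 0.846% and 0.847% after it. The gap between conditions was far larger than the gap between replicates. NPM1 alone held 29.7% of the summed TPM in untreated cells, and NPM1 and NCL made up 31.7% and 16.6% of the summed difference of 1157 TPM. Each group of factors had a higher sum in both hemin libraries than in both untreated ones. In single genes, both hemin libraries exceeded both untreated ones in TPM for 43 factors, 14 overlapped, and RCL1 was below. Of all tested genes, 21.3% lay above and 28.5% below in this way.

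**Figure D2:**
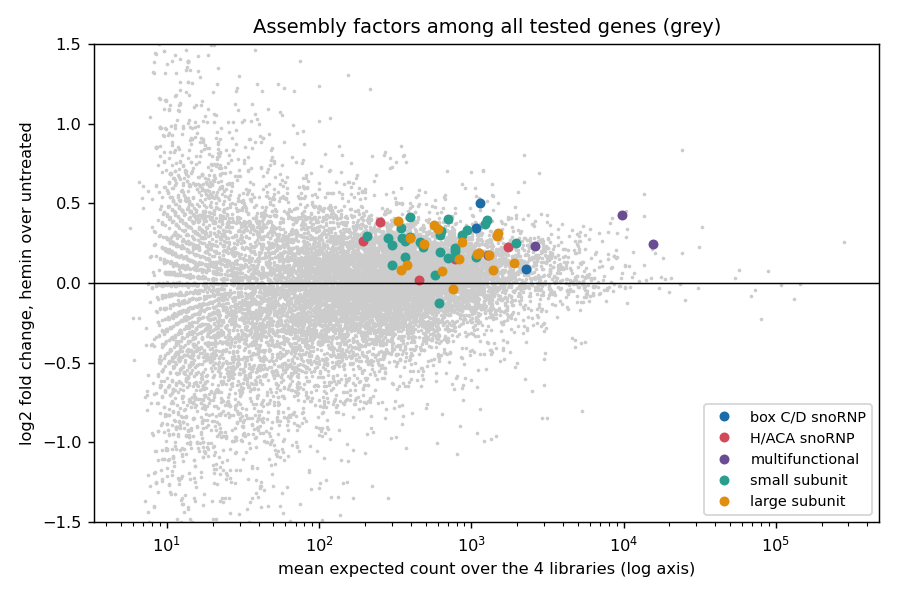
Log2 fold change against mean expected count (log axis) for the 14458 tested genes in grey and the 58 factors in color by role, with 141 genes beyond 1.5 either way not drawn. The factors form a narrow band, mostly above 0, between mean counts of 195 and 15492.

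Promoter sequences are shown before the single genes because a motif that played no part in choosing the list was found in many of them. The E-box CACGTG is the classical recognition sequence of basic helix-loop-helix factors such as MYC, MAX and USF. It reads the same on both strands. RefSeq promoter windows on GRCh38.p14, which run from 250 bases before to 50 bases after the start, were found for 48 of the 58 factors. An E-box lay in a window of 23 of the 48 factors. Counted by window, since some genes have several, it was in 24 of the factors' 54 windows (44.4%), beside 7.26% of 35116 windows in all and 9.58% of the 14423 windows of tested genes. Among the factors with a window, 10 of 24 called higher by edgeR and 13 of 24 not called had an E-box. The median log2 fold change was 0.22 with the motif and 0.24 without it. WDR43, a small-subunit factor, had the smallest adjusted p among the factors with the motif. Its window, chr2:28894417-28894716 on the plus strand, is printed with the E-box in capitals.
WDR43: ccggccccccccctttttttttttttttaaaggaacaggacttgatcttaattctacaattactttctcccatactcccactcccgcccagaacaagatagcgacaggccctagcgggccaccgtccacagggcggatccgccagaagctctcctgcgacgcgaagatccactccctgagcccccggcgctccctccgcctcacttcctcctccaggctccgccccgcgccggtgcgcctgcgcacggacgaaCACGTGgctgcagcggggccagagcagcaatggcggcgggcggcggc

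In the factors' windows, 18 of 27 E-box matches (66.7%) began within the first 50 bases after the start site, whereas 312 of 2821 matches in all windows did (11.1%). All windows include those of genes that did not pass the filter, and the windows of tested genes alone were not tallied by place. The next lines give the E-box in capitals with 10 bases on each side, in the direction of transcription, for 5 further factors called higher and 5 not called. They were picked after their values were seen, to show that the match and its place near the start occur in both sets. In UTP4, UTP20 and RRP9 the match begins just before the start, at -16, -10 and -5, and in the others after it. Matches far before the start, such as those of EBNA1BP2 (called higher) at -237 and UTP14A (not called) at -241, are not printed. PES1, MRTO4, UTP4, UTP20 and GNL2 were called higher.
PES1, chr22:30591882-30591907 minus: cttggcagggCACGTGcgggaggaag
UTP4, chr16:69132623-69132648 plus: agcgcgcgcgCACGTGgggccggggc
MRTO4, chr1:19251809-19251834 plus: tcttccgccgCACGTGgattcagcgc
UTP20, chr12:101280085-101280110 plus: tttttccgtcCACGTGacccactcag
GNL2, chr1:37595919-37595944 minus: acgtcgtgcaCACGTGgtccggcgtg
The following 5, from RRP9 to NOL6, were not called, and RCL1 had the lowest log2 fold change of all 58.
RRP9, chr3:51941894-51941919 minus: gttcagctgcCACGTGagttctgcgg
FBL, chr19:39846358-39846383 minus: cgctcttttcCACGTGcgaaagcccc
RCL1, chr9:4792938-4792963 plus: tgttccaaacCACGTGgacgcgtctg
NOC3L, chr10:94362905-94362930 minus: gggacttcggCACGTGtgtcattccc
NOL6, chr9:33473896-33473921 minus: catttccgccCACGTGggaagctatg

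**Figure D3:**
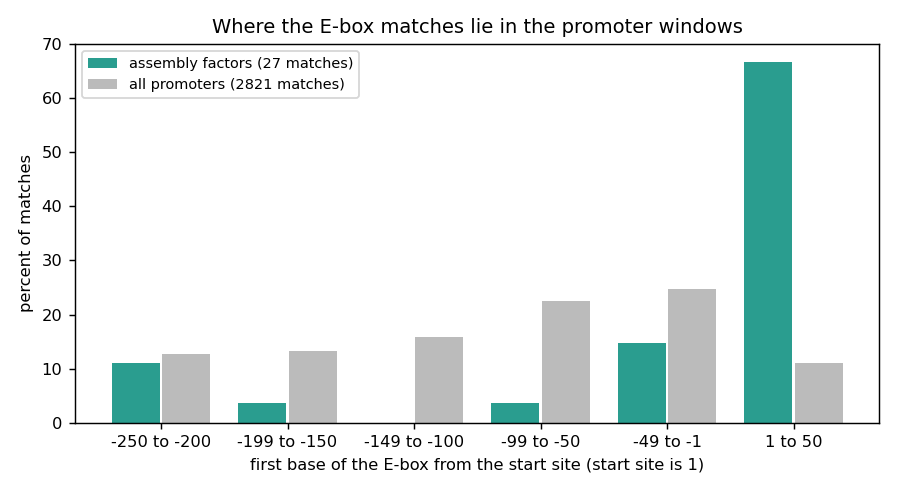
Share of E-box matches, in percent, by the place of their first base relative to the start site (start site is 1), in steps of 50 bases, for the 27 matches in the factors' promoter windows and the 2821 matches in all windows. The bar for the first 50 bases after the start reaches 66.7% for the factors and 11.1% for all windows.

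Other motifs were searched on both strands in the same windows. CCGGAAG, a site of ETS-family factors, lay in 20 of the factors' 54 windows (37.0%), beside 10.3% of all windows and 17.8% of the windows of tested genes. The GC box GGGCGG was in 41 of 54 (75.9%), beside 44.95% and 66.2%. The consensus site of NRF1 was in 3 of 54 (5.56%), beside 1.24% of all windows and 2.02% of the windows of tested genes. That of YY1 was in 1 (1.85%), beside 0.849% and 1.81%. A palindromic element known from promoters of widely expressed genes was in 2 (3.70%), beside 0.424% and 0.811%. A match only describes the letters in the window. No binding was measured in these samples.

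Of the box C/D proteins, both NOP58 and NOP56 rose and FBL did not pass the test. NOP58 and NOP56 are paired scaffold proteins of the particle, and FBL (fibrillarin) is the enzyme that methylates the ribose. NOP58 (ENSG00000055044; GRCh38, chromosome 2, bases 202265736 to 202303661, plus strand) had 119.7 and 123 CPM (counts scaled by library size and TMM factors) in the untreated libraries and 173 and 170.4 in the hemin libraries. The groups were well apart, and the log2 fold change of 0.50 (SE 0.0468, edgeR adjusted p = 3.78e-04) was the largest among the 58. NOP56 went from 121 and 126 to 158 and 155 CPM, a log2 fold change of 0.34 (SE 0.0488, edgeR adjusted p = 0.00265). FBL was read at 291 and 286 CPM without hemin and at 307 and 306 with it. Its groups did not overlap in CPM either, as in 28.1% of all tested genes in this direction, but they overlapped in TPM. The log2 fold change was 0.09 (SE 0.0399, edgeR adjusted p = 0.181).

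Levels of the 3 box C/D genes can be set side by side in TPM. FBL was the highest, at 530 ± 19.8 TPM in untreated and 538 ± 2.32 in hemin-treated cells (SD, n = 2). NOP58 stood at 146 ± 10.9 and 190.4 ± 3.92 TPM, and NOP56 at 134 ± 4.15 and 162 ± 1.73. In untreated cells NOP58 and NOP56 were close, and in both libraries of either condition NOP58 was the higher. The TPM ratio of NOP58 to FBL was 0.254 and 0.298 in the untreated libraries and 0.360 and 0.347 in the hemin libraries, higher in both hemin libraries than in both untreated ones. FBL to NOP56 moved from 4.15 and 3.77 to 3.34 and 3.31.

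The H/ACA particle has 4 core proteins, of which DKC1 and GAR1 rose. DKC1 (dyskerin), the pseudouridine synthase and also a part of telomerase, had 205 and 207 CPM in untreated cells and 238 and 244 CPM after hemin. Its log2 fold change was 0.22 (SE 0.0420, edgeR adjusted p = 0.00907). GAR1, which regulates the enzyme's activity on its substrate, was read at 30.3 and 26.0 CPM and then at 37.9 and 35.8 CPM. That is a log2 fold change of 0.38 (SE 0.0971, edgeR adjusted p = 0.0302), and the call rested on the libraries used, since GAR1 did not pass without untreated replicate 2 or without hemin replicate 1. DKC1 did not pass without untreated replicate 1.

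The other 3 H/ACA genes did not pass. NHP2, an RNA-binding core protein, had 91.2 and 99.5 CPM untreated and 105 and 106.5 CPM with hemin, with a log2 fold change of 0.15 (SE 0.0587, edgeR adjusted p = 0.126). NAF1, which holds the place of GAR1 while the particle is assembled, had 23.1 and 22.7 and then 27.9 and 27.1 CPM (log2 fold change 0.26, SE 0.0919, edgeR adjusted p = 0.0882). In both genes the hemin libraries were above the untreated ones in CPM, as in 28.1% of all tested genes. In TPM, however, the NHP2 groups overlapped. NOP10, the smallest core protein, had 55.6 and 60.1 CPM untreated and 57.98 and 59.2 CPM with hemin. The NOP10 libraries overlapped, the log2 fold change was 0.02 (SE 0.0692, edgeR adjusted p = 0.886), and its sign turned with the scaling, to -0.02 with library size alone. The TPM ratio of DKC1 to NOP10, partners in the core, was 0.792 and 0.716 untreated and 0.871 and 0.880 with hemin.

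**Figure D4:**
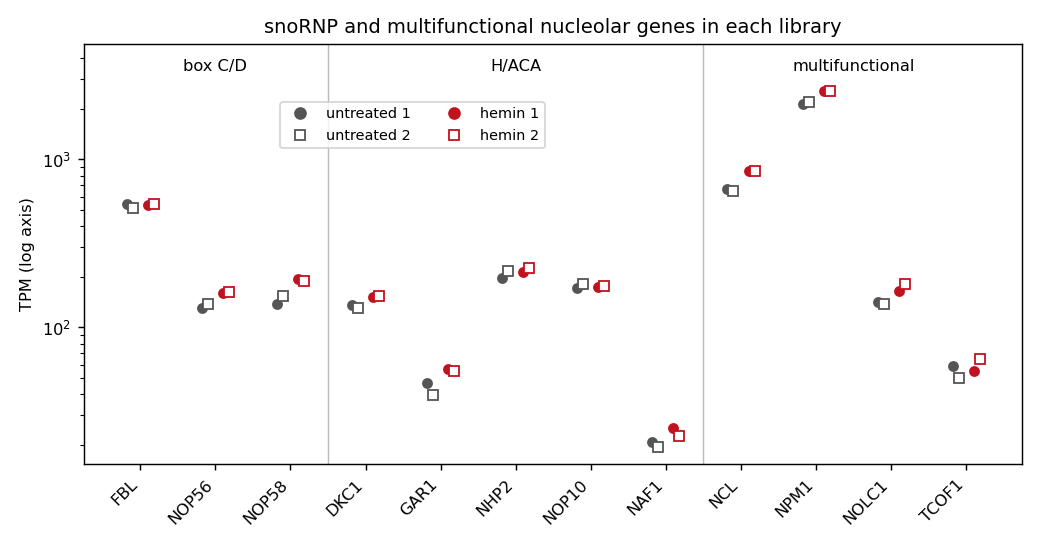
TPM (log axis) of the 3 box C/D, 5 H/ACA and 4 multifunctional genes in each library, untreated in grey and hemin in red, with circles for replicate 1 and squares for replicate 2. NPM1 is the highest, at 2144 and 2201 TPM untreated and 2539 and 2540.4 TPM with hemin, and NAF1 the lowest. FBL, NHP2, NOP10 and TCOF1 have overlapping groups.

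All 4 multifunctional proteins rose. NCL (nucleolin, ENSG00000115053; chromosome 2, bases 231453531 to 231483641, minus strand), which binds the precursor and takes part in its transcription and first folding, had 1081 and 1083 CPM in untreated cells and 1449.8 and 1460.0 CPM after hemin. The replicates were almost on top of each other. NCL had the smallest adjusted p of the 58, at a log2 fold change of 0.43 (SE 0.0357, edgeR adjusted p = 2.37e-04). NPM1 (nucleophosmin), a histone and ribosome chaperone that builds the outer layer of the nucleolus, had 1789 and 1880.4 CPM and then 2169 and 2188 CPM, with a log2 fold change of 0.25 (SE 0.0383, edgeR adjusted p = 0.00395). In TPM the NCL to NPM1 ratio was 0.310 and 0.295 before and 0.334 in both hemin libraries.

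NOLC1 and TCOF1 are related scaffold proteins, rich in phosphorylated repeats, which tie RNA polymerase I and snoRNPs together. NOLC1 was at 312 CPM in both untreated libraries and at 358 and 374 CPM with hemin (log2 fold change 0.23, SE 0.0416, edgeR adjusted p = 0.00732). TCOF1 (treacle), the gene of Treacher Collins syndrome, was at 155 and 158 and then 175 and 179 CPM, with a log2 fold change of 0.18 (SE 0.0447, edgeR adjusted p = 0.0297). In TPM, however, the TCOF1 groups overlapped, at 58.8 and 49.8 untreated and 54.6 and 65.0 with hemin. TCOF1 was past the threshold without hemin replicate 1 but not without any other single library, and was not called by DESeq2 (adjusted p = 0.0797).

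Of the 28 small-subunit factors, 14 rose and none was called lower by edgeR, beside 7.00% and 7.14% of all tested genes. At an unadjusted p under 0.05, 24 were higher and 0 lower, beside 14.8% and 14.6% of all tested genes. DESeq2 called 9 higher and 0 lower, beside 4.99% and 3.99% of all genes with an adjusted p in its fit. Their median log2 fold change was 0.26. The count was 8 without untreated replicate 1, 7 without untreated replicate 2 and 9 without hemin replicate 2. By complex, 5 of the 6 UtpA proteins rose, 2 of 4 in UtpB, 1 of 5 around U3 and MPP10, 3 of 8 other processome factors and 3 of 5 factors of the later steps. The differences between these complexes were not tested, and the standard errors were larger in the genes with fewer reads.

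UtpA is the first complex to bind the new precursor and is also needed for its transcription. WDR43 (ENSG00000163811) had 135 and 142 CPM in untreated cells and 178 and 179 CPM after hemin, a log2 fold change of 0.37 (SE 0.0473, edgeR adjusted p = 0.0015). Its replicates lay close together and the groups far apart. The other called UtpA genes, UTP15, UTP4, NOL11 and HEATR1, had log2 fold changes from 0.25 to 0.35. HEATR1, the largest of these proteins, was at 239 and 227 CPM and then at 266 and 289 CPM, though its TPM overlapped between groups. WDR75 was the UtpA gene not called: 85.2 and 87.5 CPM untreated, 96.5 and 95.9 CPM with hemin (log2 fold change 0.16, SE 0.0535, edgeR adjusted p = 0.0822).

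UtpB joins after UtpA, and its proteins are mostly of the WD40-repeat type. UTP18 and WDR3 rose, with log2 fold changes of 0.29 and 0.20 (edgeR adjusted p = 0.0264 and 0.0349). WDR36, a gene linked to glaucoma, had 130.2 and 134 and then 142 and 153 CPM, and UTP6 had 97.1 and 93.3 and then 109 and 104 CPM. Both had a log2 fold change of 0.16 and did not pass by edgeR (adjusted p = 0.072 and 0.0781).

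MPHOSPH10, IMP3 and IMP4 form a complex that helps the U3 snoRNA pair with the precursor, and RRP9 is the U3 particle's own protein. MPHOSPH10 rose, from 74.5 and 82.5 CPM to 99.9 and 107 CPM, at a log2 fold change of 0.40 (SE 0.0665, edgeR adjusted p = 0.00538). Its partners were not called. IMP4 had 76.5 and 72.5 CPM untreated and 80.8 and 89.9 CPM with hemin, at a log2 fold change of 0.20 (SE 0.0687, edgeR adjusted p = 0.088). IMP3, at 34.9 and 40.6 CPM untreated and 43.4 and 38.4 CPM with hemin, overlapped between groups (log2 fold change 0.12, SE 0.0994, edgeR adjusted p = 0.492). For RRP9 and UTP3, a neighbor in the processome, both hemin libraries were above both untreated ones in CPM, as in 28.1% of all tested genes. Their log2 fold changes were 0.28 and 0.24, with edgeR adjusted p of 0.0763 and 0.119.

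Among the remaining processome factors, the very large scaffold UTP20 had the largest log2 fold change, 0.42 (SE 0.0806, edgeR adjusted p = 0.0103). It was at 46.8 and 41.3 CPM untreated and at 57.3 and 60.2 CPM with hemin, and was the lowest of all 58 in TPM, at 6.85 ± 0.693 and 9.07 ± 0.0707 (SD, n = 2). NOL10 and NOP14 rose as well, with log2 fold changes of 0.30 and 0.22. UTP14A, which activates a helicase of the processome, NOC4L and WDR46 had log2 fold changes of 0.26, 0.30 and 0.22 and edgeR adjusted p of 0.0648, 0.0981 and 0.0893. In all 3 both hemin libraries were above both untreated ones in CPM, as in 28.1% of all tested genes.

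RCL1 and NOL6 stood at the low end. RCL1, a protein with the fold of an RNA cyclase that acts in cutting the precursor, had 86.6 and 77.8 CPM untreated and 72.3 and 78.7 CPM with hemin. The groups overlapped in CPM, although the TPM of 71.9 and 64.8 untreated lay above the 56.9 and 58.4 with hemin. Its log2 fold change was -0.12 (SE 0.0721, edgeR adjusted p = 0.301). NOL6 had 75.1 and 71.8 and then 71.6 and 80.3 CPM, with a log2 fold change of 0.05 (SE 0.0705, edgeR adjusted p = 0.698) that turned to -0.04 without hemin replicate 2.

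The later small-subunit factors bind the particle up to its export and last cut. NOB1, the endonuclease that makes the mature end of the small ribosomal RNA, rose from 129 and 156 CPM to 190.3 and 184 CPM (log2 fold change 0.39, SE 0.0763, edgeR adjusted p = 0.0102). The untreated replicates of NOB1 were apart, and both were below both hemin libraries. TSR1, a GTPase-like factor, and RRP12, an export factor, rose with log2 fold changes of 0.30 and 0.33 (edgeR adjusted p = 0.00548 and 0.0387). LTV1, another export factor, and BYSL (bystin) were not called, at log2 fold changes of 0.25 and 0.16 and edgeR adjusted p of 0.0706 and 0.292.

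Of the 18 large-subunit factors, 11 rose and none was called lower by edgeR, beside 7.00% and 7.14% of all tested genes. At an unadjusted p under 0.05, 13 were higher and 0 lower, beside 14.8% and 14.6% of all tested genes. DESeq2 called 6 higher and 0 lower, beside 4.99% and 3.99% of all genes with an adjusted p in its fit. The median log2 fold change was 0.18. Without untreated replicate 1 the count of higher calls was 4, without untreated replicate 2 or hemin replicate 2 it was 6, and without hemin replicate 1 it was 7, when NOP2 was called lower.

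PES1, BOP1 and WDR12 make up the PeBoW complex, which is needed to process the large-subunit RNA and for cells to divide. All 3 rose. PES1 (ENSG00000100029) had 169 and 173 CPM in untreated cells and 213 and 207 CPM with hemin, at a log2 fold change of 0.30 (SE 0.0439, edgeR adjusted p = 0.00339). BOP1 (129 and 136, then 151 and 148 CPM) and WDR12 (132 and 142, then 159 and 153 CPM) had smaller log2 fold changes of 0.18 and 0.19, with edgeR adjusted p of 0.0411 and 0.0413. DESeq2 called PES1 but neither BOP1 (adjusted p = 0.109) nor WDR12 (adjusted p = 0.0866). WDR12 was the large-subunit factor with the highest level, at 199.7 ± 9.62 TPM untreated and 223 ± 3.61 TPM with hemin (SD, n = 2).

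Among the early large-subunit factors, RRS1 and PPAN had the largest changes. RRS1, which helps to bring the smallest ribosomal RNA into the large subunit, was at 37.9 and 36.5 CPM and then at 46.1 and 51.1 CPM (log2 fold change 0.39, SE 0.0822, edgeR adjusted p = 0.0151). PPAN, the human homolog of yeast SSF1, had 62.6 and 66.8 CPM untreated and 83.6 and 82.8 CPM with hemin (log2 fold change 0.36, SE 0.0613, edgeR adjusted p = 0.00561). MRTO4, which holds the place of a stalk protein, and RRP1B had log2 fold changes of 0.34 and 0.31, with edgeR adjusted p of 0.00694 and 0.00261. EBNA1BP2, NOP16 and NIP7 also rose, with log2 fold changes from 0.24 to 0.29.

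The factors that stayed under the threshold here were NOC2L, NOC3L, BRIX1, FTSJ3 and NOP2. NOC2L, which shuttles with other NOC proteins to export the subunit, had 232 and 242 and then 257 and 259.6 CPM. Both hemin libraries were above both untreated ones, as in 28.1% of all tested genes. The log2 fold change of NOC2L was 0.13 (SE 0.0429, edgeR adjusted p = 0.0818). NOC3L overlapped between groups, at 44.5 and 41.8 CPM untreated and 44.5 and 46.9 CPM with hemin, with a log2 fold change of 0.08 (edgeR adjusted p = 0.532). For BRIX1 and FTSJ3, an RNA methyltransferase, the log2 fold changes were 0.08 and 0.12 (edgeR adjusted p = 0.435 and 0.365).

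NOP2, which methylates a cytosine of the large ribosomal RNA, needs a reading of its own. It had 99.1 and 98.7 CPM untreated and 112 and 81.3 CPM with hemin, so that the hemin replicates stood on both sides of the untreated ones (log2 fold change -0.04, SE 0.118, edgeR adjusted p = 0.873). Without hemin replicate 1 it was called lower, at -0.28 (edgeR adjusted p = 0.0232), and without hemin replicate 2 the log2 fold change was 0.18 (edgeR adjusted p = 0.131). A read-through gene, ENSG00000285238, shares 54.4% of the exon bases of NOP2 on the same strand, and the posterior SD of the NOP2 count was 10.3% of the count, the only factor above 5%. The read-through gene took 271 and 239 counts in the untreated libraries and 137 and 415 in the hemin libraries, opposite to NOP2 in the latter. With both genes added, the counts were 1055 and 978 untreated against 969 and 1071 with hemin, and the log2 fold change was -0.0031 (SE 0.047, edgeR adjusted p = 0.977).

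Sharing of exon bases also touched other factors. PPAN shares 47.6% of its exon bases with its read-through PPAN-P2RY11, and with both added the log2 fold change was 0.37 (edgeR adjusted p = 0.00404). A further 7 factors (NHP2, HEATR1, IMP3, NOP14, TSR1, NIP7 and FTSJ3) share over 10% of their exon bases with a tested gene on the other strand. The RSEM options that the paper lists name none for strand. UTP15, outside the 7, shares 3.56% of its exon bases with ANKRA2 on the other strand. Their counts were fractions, such as 320.68 and 93.32 for untreated replicate 1. Their sums were whole numbers in every library (414, 398, 442 and 485), as when reads are split between both genes. Not every pair gave whole sums, with 1181.85 for NHP2 and RMND5B in untreated replicate 2. Reads in shared stretches therefore cannot be assigned to a single gene with certainty. Of the 7 partners, PSMC5, a proteasome subunit next to FTSJ3, was the only one called, with an edgeR adjusted p of 0.0236 and a log2 fold change of 0.23.

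GTPases of the nucleolus check and release the large subunit before it leaves. GNL2 rose, from 158 CPM in both untreated libraries to 177 and 180.0 CPM with hemin (log2 fold change 0.18, SE 0.0439, edgeR adjusted p = 0.0278). GNL3 (nucleostemin), known from stem cells and proliferating cells, had 99.3 and 103 and then 109 and 115 CPM, and GTPBP4 had 176 and 172 and then 185 and 184 CPM. In both, the hemin libraries were above the untreated ones, as in 28.1% of all tested genes. Their log2 fold changes were 0.15 and 0.08, with edgeR adjusted p of 0.0968 and 0.246.

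**Figure D5:**
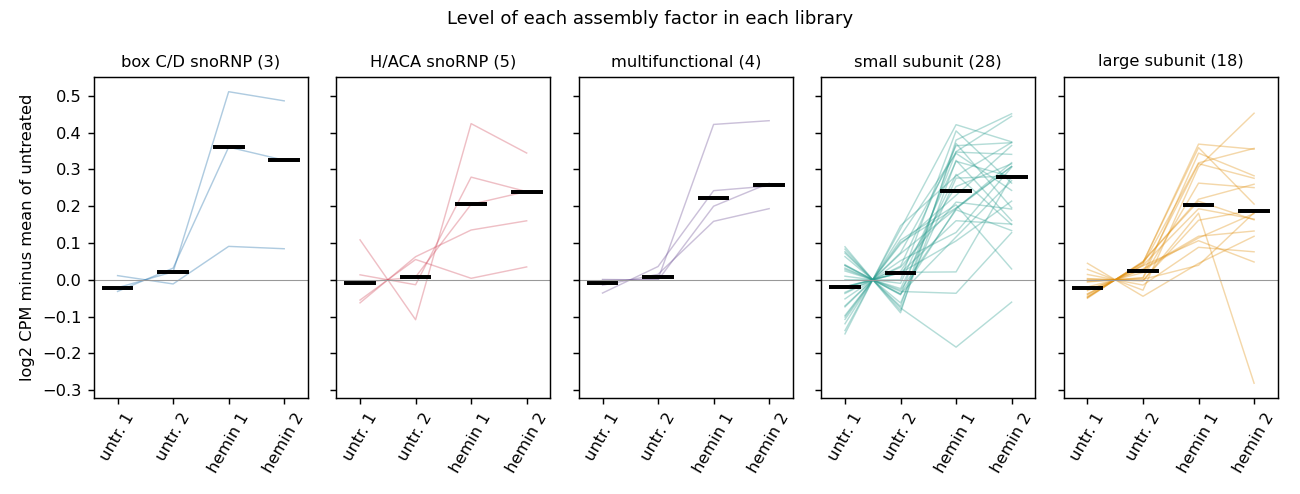
Log2 CPM of every assembly factor in each library, minus the gene's mean in the untreated libraries, in a panel for each role, with a line for each gene. The median over the 58 factors is -0.019 and 0.019 in the untreated libraries and 0.22 and 0.25 in the hemin libraries.

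The spread between replicates was small beside the shift of the factors as a whole. The median of log2 CPM over the 58 factors, relative to each gene's untreated mean, was -0.019 and 0.019 in the untreated libraries and 0.22 and 0.25 in the hemin libraries, and the SD of this median within a condition was 0.026. The box C/D group moved by 0.36 and 0.32 in the hemin libraries, the small-subunit group by 0.24 and 0.28 and the large-subunit group by 0.20 and 0.19. Across the 58 factors, which share the libraries and so are not independent, the log2 fold change against log2 mean TPM had a Pearson r of -0.055 and a Spearman rho of -0.10, over mean TPM from 7.96 to 2356. Against log2 transcript length r was 0.14 and rho 0.092.

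Which factors were called depended on the library left out for 19 of the 33. The other 14 were called higher by edgeR with each library left out in turn: NOP56, NOP58, NCL, NPM1, NOLC1, UTP4, WDR43, MPHOSPH10, NOB1, TSR1, PES1, RRP1B, PPAN and MRTO4. Without untreated replicate 1 the call was lost for 15 factors (DKC1, TCOF1, NOL11, UTP18, WDR3, NOL10, NOP14, RRP12, BOP1, WDR12, NOP16, RRS1, NIP7, EBNA1BP2 and GNL2). Without untreated replicate 2 it was lost for 14, among them GAR1, HEATR1, UTP15 and UTP20, which were kept without untreated replicate 1. Without hemin replicate 1 the call was lost for 8 and gained for WDR36, IMP4, UTP14A, WDR46 and LTV1, and without hemin replicate 2 it was lost for 12 and gained for RRP9.

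Several of these genes carry snoRNA genes in their introns, so the host transcript and the guide RNAs of the same pathway come from one promoter. By annotation, 9 of the 58 factors (15.5%) contain a snoRNA gene on the same strand, beside 199 of 11682 tested protein-coding genes (1.70%). GNL3 holds 6, NOP56 5, NOP58 4, NCL and WDR43 3 each, DKC1, TSR1 and PPAN 2 each and NOL11 1. Of the 9 hosts, GNL3 was the only one not called higher by edgeR, beside 33 of the 58 factors and 7.00% of all tested genes called higher. NOL11 was not called by DESeq2 (adjusted p = 0.163). Whether hosting a snoRNA goes with the change was not tested. The spliced host RNA was measured here, not the snoRNAs.

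Wider lists of the pathway, from general knowledge and with earlier results of these data known, were read in the same fit. There edgeR called 7.00% of all tested genes higher and 7.14% lower. Among genes with a mean count of at least 100 it called 10.7% higher and 8.82% lower. No list was tested against these shares. Of 32 further small-subunit factors, 11 were called higher and 0 lower by edgeR, at a median of 0.19 on the log2 scale, while the count was 3 without untreated replicate 1, 5 without untreated replicate 2, 6 without hemin replicate 2 and 6 by DESeq2. The helicase DHX37 had the largest change among them, 0.45 (edgeR adjusted p = 0.00726). Of 42 further large-subunit factors, 20 were called higher and 0 lower, with a median of 0.22, and SURF6 led at 0.48 (edgeR adjusted p = 0.00732). That count was 7 without untreated replicate 1, 12 without untreated replicate 2, 13 without hemin replicate 2 and 12 by DESeq2.

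Genes of other steps of the pathway were read as well, beside the same shares of all tested genes (7.00% called higher and 7.14% lower by edgeR). Of 15 genes of RNA polymerase I and its factors, 11 had a log2 fold change above 0. TAF1A was the lowest, at -0.21 (edgeR adjusted p = 0.519). EdgeR called 3 of the 15 higher, among them the largest subunit POLR1A, at 0.41 (edgeR adjusted p = 0.0011), and UBTF, at 0.27 (edgeR adjusted p = 0.0195). The count was 2 without untreated replicate 1, 1 without untreated replicate 2 and 2 by DESeq2. Of 13 genes of the RNA exosome and other nucleases of ribosomal RNA, 3 were called higher, including EXOSC9 (0.41, edgeR adjusted p = 0.0349) and EXOSC3 (0.38, edgeR adjusted p = 0.0201), and DESeq2 called 1. Without untreated replicate 1 none of them was called, and without untreated replicate 2 it was 1. Of the 8 chaperones that assemble snoRNPs, edgeR called 0 in either direction, 0 had an unadjusted p under 0.05 and DESeq2 called 0, with a median log2 fold change of 0.10.

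The cytosolic ribosomal proteins, which the factors build into the subunits, gave another picture. Of 79 genes, edgeR called 0 higher and 0 lower, with 3 higher and 4 lower at an unadjusted p under 0.05, beside 14.8% and 14.6% of all tested genes, and DESeq2 called 0. Their median log2 fold change was -0.018, and its sign depended on the library, at 0.033 without untreated replicate 2 and -0.050 without untreated replicate 1. Without hemin replicate 1, 4 were called lower, and without hemin replicate 2, 1 was called higher. Summed TPM of these genes was 143772 and 148384 in the untreated libraries and 144792 and 138105 in the hemin libraries, so the groups overlapped. The difference between the ribosomal proteins and the assembly factors was not itself tested.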

How the data were processed

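As the paper's methods and the submitters' notes state, the authors trimmed reads of 50 bases (Trimmomatic 0.39), aligned them with STAR 2.7.5c and ran RSEM 1.3.1 on Ensembl 106 (GRCh38). The authors' expected counts are RSEM estimates without normalization, in which a read that maps to several genes is split. RSEM's sampling gave the posterior mean count and the posterior SD that the authors deposited beside each count. The authors' TPM are scaled by effective length to a fixed sum, and the FPKM they deposited were not used here.

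Rounded expected counts that passed filterByExpr were scaled with TMM factors. Condition was the only term of edgeR 4.0.16's quasi-likelihood fit (R 4.3.3). P-values were adjusted by Benjamini-Hochberg over all genes, and calls were made at 0.05. The dispersion common to all genes was 0.00118. The steps were tested on simulated counts. Other settings tried were RLE factors, scaling by library size alone, DESeq2 1.42.0, looser and stricter count filters, the replicate number as a block, leaving out each library, limma 3.58.1 on TPM with pseudocounts of 1 and 0.1, the posterior means as counts, a correction for length and, after the data were seen, read-through counts added. Coordinates, snoRNA hosts and shared exon bases came from GENCODE 44 (Ensembl 110), and promoter sequences from RefSeq GRCh38.p14.

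The 58 genes, their groups and the lists were chosen with earlier results of these data known. Named were all snoRNP and multifunctional genes, in the subunit groups the 4 largest and 4 smallest changes and the 2 highest TPM, every uncalled factor, and any with a posterior SD above 5%. Other genes were named after their values were seen. A gene at 0 in a library could have had up to 3 counts, which is 0.364 to 0.402 CPM, for counting error only.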

Additional observations from a re-analysis of the deposited data

How the results depend on the processing

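The count of factors called higher (33) was 21 with DESeq2, 1 with limma on either TPM scale and 18 to 30 with each library left out. The count called lower was 0 to 1 with each library left out. The 4 fits without a library called 1 to 2 H/ACA, 7 to 16 small-subunit and 4 to 7 large-subunit factors higher. DESeq2 called 1, 9 and 6 in these groups, library size alone 6 in the large-subunit group, and limma 0 in the box C/D, H/ACA, small-subunit and large-subunit groups and 1 of the multifunctional genes. Over all tested genes, 602 were called higher and 481 lower with DESeq2, 14 and 33 with limma at a pseudocount of 1, 15 and 34 at 0.1, and 469 to 934 and 512 to 884 with each library left out.

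The median log2 fold change of the factors (0.24) was 0.21 with library size alone and 0.21 to 0.26 with each library left out. For box C/D it was 0.31 with library size alone, 0.27 with limma at either pseudocount and 0.31 to 0.38 with each library left out, and for H/ACA 0.18, 0.20 and 0.21 to 0.25. For the multifunctional genes these medians were 0.20, 0.27 and 0.22 to 0.27, for the small subunit 0.22, 0.22 (0.23 at a pseudocount of 0.1) and 0.22 to 0.29, and for the large subunit 0.15 with library size alone and 0.16 to 0.23 with each library left out. Library size alone put the median of all genes at -0.043.

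Of the named factors, 4 changed sign in some setting, and none of these 4 was called in the first place. NOP10 was at -0.018 with library size alone, -0.013 with limma at either pseudocount, -0.0018 with the length correction and -0.036 to 0.079 with each library left out. NOP2 was at 0.0097 and 0.0098 with limma and at -0.28 to 0.18 with each library left out, NOL6 at -0.038 to 0.14, and UTP6 at -0.0055 and -0.0056 with limma. A tally over the settings covered only the 42 factors of the naming rule. These hold every uncalled factor but only some of the called ones, with PES1, UTP4 and HEATR1 among those left out. Their values were on the same side of the threshold and of 0 in 547 comparisons, lost the call in 51, gained it in 21 and changed sign in 11. The tally therefore does not describe the called factors alone. In every setting other than limma 14 factors were called higher, among them NOP58, NOP56, NCL, NPM1, WDR43 and PES1.

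With the replicate number as a block, 28 factors were called higher and 0 lower. In the labels, replicates of the same number share only that number. Differences between replicates 1 and 2 correlated between conditions at 0.0047 over all tested genes. Over genes with a mean count of at least 100 the value was -0.029. These values, from 2 libraries in a condition, cannot show whether replicates of the same number shared a batch. With 2 libraries in a condition, a library left alone was assumed to vary like the others, and changes well below the median here were not detectable at this depth for the genes with fewest reads.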
